A study of Mus musculus with 6 samples.

Results

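The genes described here are those of the cytosolic ribosomal proteins, the protein components of the particle that translates messenger RNA in the cytoplasm. They were chosen by symbol alone, as every gene named Rpl or Rps followed by a digit, Rplp0 to Rplp2 or Rpsa, without the S6 kinases and without symbols that contain "-ps". The rule took 65 of 19057 genes with a symbol, measured by 96 of 45281 probes. Of the 65, 56 encode main ribosomal proteins, 33 of the large and 23 of the small subunit. The others are 6 paralogs (Rpl22l1, Rpl36al, Rpl3l, Rpl39l, Rpl7l1 and Rps27l), 2 genes classed as pseudogene or retrogene (Rps4l and Rps23rg1) and 1 binding partner of a ribosomal protein (Rps19bp1).

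The arrays compared 3 samples labelled Hox5 mutant with 3 wild-type samples of mouse cervical motor neurons at stage e12.5. The series title gives the mutant genotype as Hoxa5fl/fl::olig2CREHoxc5-/-, a Hoxa5 allele that Cre recombinase removes from cells of the Olig2 lineage, which include motor neuron progenitors, on a background without Hoxc5. All 6 samples were sorted by the HB9::GFP reporter, which marks motor neurons, from mixed C57/Bl6, BALB/c and FVB stock, and RNA was hybridised to Illumina bead arrays. The labels do not state whether wild-type embryos carried Cre or a floxed allele, or whether 1 embryo or a pool made up a sample. The p-values therefore rest on these 6 samples alone. In the limma fit, the spread of each gene was also drawn toward a value shared by all features. For genes with little spread of their own, limma p-values and intervals largely reflect that shared value. The Hoxa5 probe read 13.15, 13.81 and 13.67 on the log2 scale in arrays labelled mutant, against 14.03, 13.99 and 13.94 in wild type. The Hoxc5 probe read 6.58, 7.65 and 7.71 in arrays labelled mutant, against 6.47, 6.59 and 6.68 in wild type. Hoxa5 was lower on every array labelled mutant but still bright there, and Hoxc5 was not lower in arrays labelled mutant. The part of each gene that its probe covers was not compared with the alleles, so these probes do not check the labels.

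Each ribosome holds 1 copy of nearly every ribosomal protein, and cells make these proteins in matched amounts. Their messenger RNAs are among the most abundant of a growing cell, and in mammals they begin with a run of pyrimidines, the 5′ terminal oligopyrimidine tract, through which the mTOR pathway and the RNA-binding protein Larp1 adjust their translation. Some ribosomal proteins have a paralog that is made in certain tissues or after loss of the main copy. In mice, loss of 1 copy of Rpl38 gives homeotic changes of the axial skeleton, which is one link between this family and Hox genes.

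Windows around the annotated start sites were searched for pyrimidine runs. A run did not have to begin at the first base of the messenger RNA, so a run found need not be the tract itself. RefSeq windows (build GRCm38.p6) of 250 bases before to 50 bases after the start were given for 54 of the 65 genes, 64 windows in all. A run of at least 8 pyrimidines (C or T, on the strand of the gene) lay within 10 bases before to 30 bases after the start in 23 of 64 windows (35.9%), against 14.4% of all 32851 windows. The letters CCGGAAG, the core of an ETS factor motif, were found on either strand in 24 of the 64 windows (37.5%), against 8.86% of all windows. The letters AAGATGG, the core of the YY1 motif, were found on either strand in 8 of the 64, against 6.34% of all. These matches describe letters in a window and are not tests of binding, and a RefSeq start need not be the start used in these cells.

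The sequences below are 60 bases each, from 40 before to 20 after the start, written 5′ to 3′ on the strand of the gene, with pyrimidine runs of at least 8 bases that reach into the scanned stretch in capitals. Rpl22l1, Rpl31 and Rpl27 are shown because their array values did not overlap between groups. Rpl3 met this rule as well but had no window. Rpl22 is shown as the main copy of Rpl22l1, and Rpl27a, Rpl35 and Rpl7a as members with long runs. The positions are chr4:152324396-152324455 (plus strand) and chr4:152325686-152325745 (plus) for the 2 starts of Rpl22, chr3:28805468-28805527 (plus) for Rpl22l1, chr1:39367811-39367870 (plus) for Rpl31, chr11:101442205-101442264 (plus) for Rpl27, chr7:109519155-109519214 (plus) for Rpl27a, chr2:39005112-39005171 (minus) for Rpl35 and chr2:26910767-26910826 (plus) for Rpl7a.
Rpl22l1: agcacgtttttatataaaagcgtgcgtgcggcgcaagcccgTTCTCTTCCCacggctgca
Rpl22, start 1: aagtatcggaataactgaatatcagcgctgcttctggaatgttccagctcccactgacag
Rpl22, start 2: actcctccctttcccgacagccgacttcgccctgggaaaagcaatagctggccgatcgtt
Rpl31: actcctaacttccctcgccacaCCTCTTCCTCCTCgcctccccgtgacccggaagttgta
Rpl27: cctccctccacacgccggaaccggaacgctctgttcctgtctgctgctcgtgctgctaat
Rpl27a: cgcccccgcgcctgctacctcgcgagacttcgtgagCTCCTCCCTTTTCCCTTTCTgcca
Rpl35: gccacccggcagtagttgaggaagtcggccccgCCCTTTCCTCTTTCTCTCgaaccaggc
Rpl7a: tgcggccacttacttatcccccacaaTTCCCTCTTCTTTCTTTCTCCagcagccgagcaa
Rpl22l1 has a run of 10 pyrimidines just after its annotated start, whereas neither window of Rpl22 holds a run of 8 in the scanned stretch. The window of Rpl22 start 2 does hold a longer run near its beginning, which ends before that stretch. Rpl27a and Rpl35 have the longest runs of those shown within that stretch, 20 and 18 bases. The run of 13 in Rpl31 lies partly before the stretch, in which its longest run has 7 bases, so this window is not among the 23.

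Facts of the arrays bear on every value that follows. Between 19401 and 20011 probes per array were detected on arrays labelled mutant and between 19307 and 20307 on wild-type arrays, at a detection p under 0.05. All 13 motor neuron markers on the array (14 listed, Isl1, Mnx1 and Chat among them) passed the detection filter, with a summed level of 4935 to 10485 in arrays labelled mutant and 7586 to 8650 in wild type. These sums are background-corrected, normalized intensities added over the list. The first mutant replicate stood apart in markers of other cells. Its 7 kept blood markers of 10 on the array summed to 73058, against 2278 and 3113 on the other mutant arrays and 10625, 1522 and 1339 on the wild-type arrays. Its 4 kept mesenchyme markers of 10 summed to 14260, against 3079 and 1095 on the other mutant arrays and 3467, 1351 and 2582 on the wild-type arrays. Its 4 kept endothelial markers of 10 summed to 1884, against 344 and 257 on the other mutant arrays and 393, 245 and 323 on the wild-type arrays.

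The ribosomal protein genes were bright. Of the 96 probes, 75 were detected on all 6 arrays, 9 on 1 to 5 arrays and 12 on none. Probes needed detection on 3 or more of the 6 arrays to be kept, a filter met by 79 of the 96 probes and by 57 of the 65 genes. On each array, 42 or 43 of these 57 genes lay above the 98th percentile of all probes, and 28 had a mean deposited signal over 10000 in a range that ended at 56712.5. The 96 probes took 4.53%, 4.01% and 3.99% of the summed signal, background included, on arrays labelled mutant, against 4.23%, 3.97% and 3.97% in wild type. After background correction these shares were 5.59%, 4.92% and 4.84%, against 5.09%, 4.98% and 4.95%. Mutant replicates 2 and 3 then lay below every wild-type array. The highest shares were on the arrays numbered 1 of both groups, and the groups overlapped.

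Of the 65 genes, 8 were not tested because no probe of theirs was kept, namely Rpl14, Rpl17, Rpl6, Rps20, Rps23, Rpl3l, Rpl39l and Rps23rg1. Rpl3l, a paralog of Rpl3 known from striated muscle, and Rpl39l, a paralog of Rpl39 known from testis, were detected on no array. Neither were the probes of Rpl6, Rpl17, Rps20 and Rps23, main genes of the ribosome, so a lack of detection by these probes does not show that a gene was silent. Rpl39 itself read 13.94, 13.86 and 13.89 in arrays labelled mutant, against 13.84, 13.91 and 13.96 in wild type, with overlapping groups. Both Rps23rg1 probes, for a retroposed copy of Rps23, were detected on 1 array each. Rpsa, the small-subunit protein also known as the laminin receptor, was the 1 tested gene not detected on all 6 arrays, with signals of 109.2, 125.5 and 118.1 on arrays labelled mutant and 119, 102.5 and 105.4 in wild type. Its probe lay close to the median of all probes, which ran from 97.7 to 109.8 over the arrays, and says little about the level of this gene.

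No ribosomal protein gene passed the test between groups. The comparison asked whether loss of Hox5 function in these motor neurons goes with a change in the genes of the ribosome. In limma's fit over 13638 features, 1 probe per gene, 0 of 57 members passed an adjusted p under 0.05, where 0% of all features did, and the members' adjusted p-values lay between 0.997 and 0.998. Without adjustment, p was under 0.05 for 1 of the 57, Rpl22l1, where 0.851% of all features did so with a higher and 0.983% with a lower value in arrays labelled mutant. The limma 95% interval lay within 1.5-fold in either direction for 50 of the 57 genes and reached past it for the other 7. In size, 38 of the 57 differences (66.7%) were under 0.1 on the log2 scale.

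**Figure D1:**
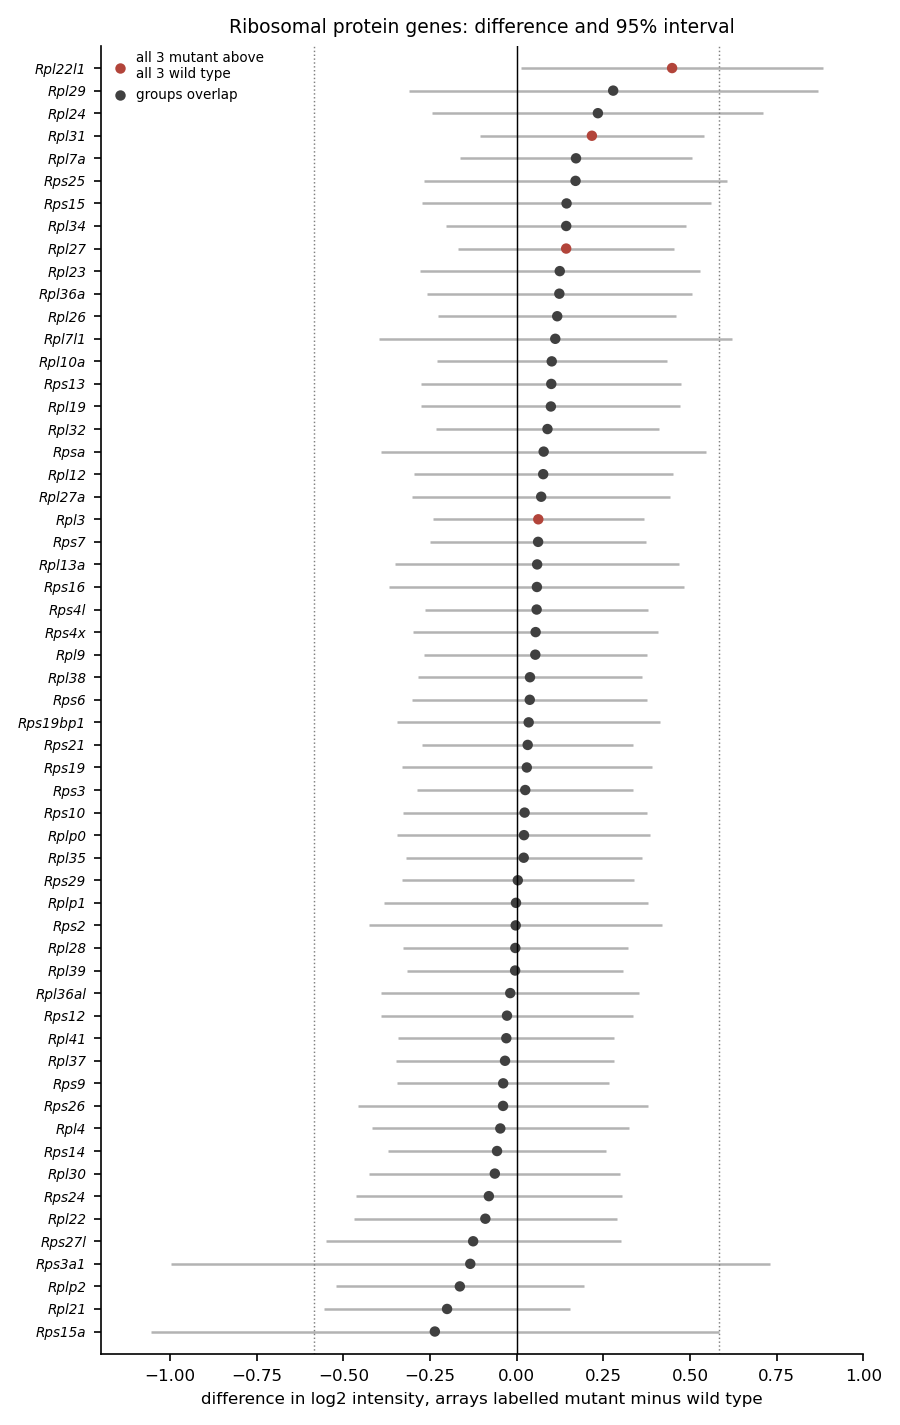
Difference in log2 intensity between arrays labelled mutant and wild-type arrays (horizontal axis) for the 57 tested genes, with limma's 95% interval as a bar and 1.5-fold in either direction as dotted lines (n = 3 per group). Only the interval of Rpl22l1 leaves out 0, and the 4 genes in red had all 3 mutant values above all 3 wild-type values.

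More members lay above 0 than below. Of the 57 genes, 37 (64.9%) had a higher mean in arrays labelled mutant, where 47.4% of all features did, and the median difference was 0.04 for the members and -0.01 for all features. The count was 20 of 30 for main large-subunit genes (median 0.06) and 13 of 21 for main small-subunit genes (median 0.02). The balance depended on the first mutant replicate. Without that array, 27 of 57 members were higher and the median difference was -0.01. Leaving out any other single array gave 35 to 42 members higher. Without the arrays numbered 1 of both groups, 32 of 57 were higher with a median of 0.03, and with array weights these were 31 and 0.01.

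The 6 arrays show the same in the members' deviations from their own mean over all arrays. The median deviation was 0.08, -0.02 and -0.04 on the arrays labelled mutant, against 0.01, -0.06 and -0.05 in wild type. The first mutant replicate held the highest value of 22 of the 57 members, and wild-type replicate 2 held the lowest value of 24. On the first mutant replicate the median deviation of the kept markers was 3.60 for blood, 2.55 for mesenchyme, 1.19 for neural progenitors, 0.66 for cell division and -0.39 for motor neurons. On wild-type replicate 1 these were 1.005, -0.23, 0.47, 0.40 and 0.18. The motor neuron median was also low on mutant replicate 3, at -0.36, and was 0.39 on mutant replicate 2. The part of cells other than motor neurons in the ribosomal protein values was not tested. In RNA from sorted cells, fewer cells of a type and less RNA per cell cannot be told apart.

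**Figure D2:**
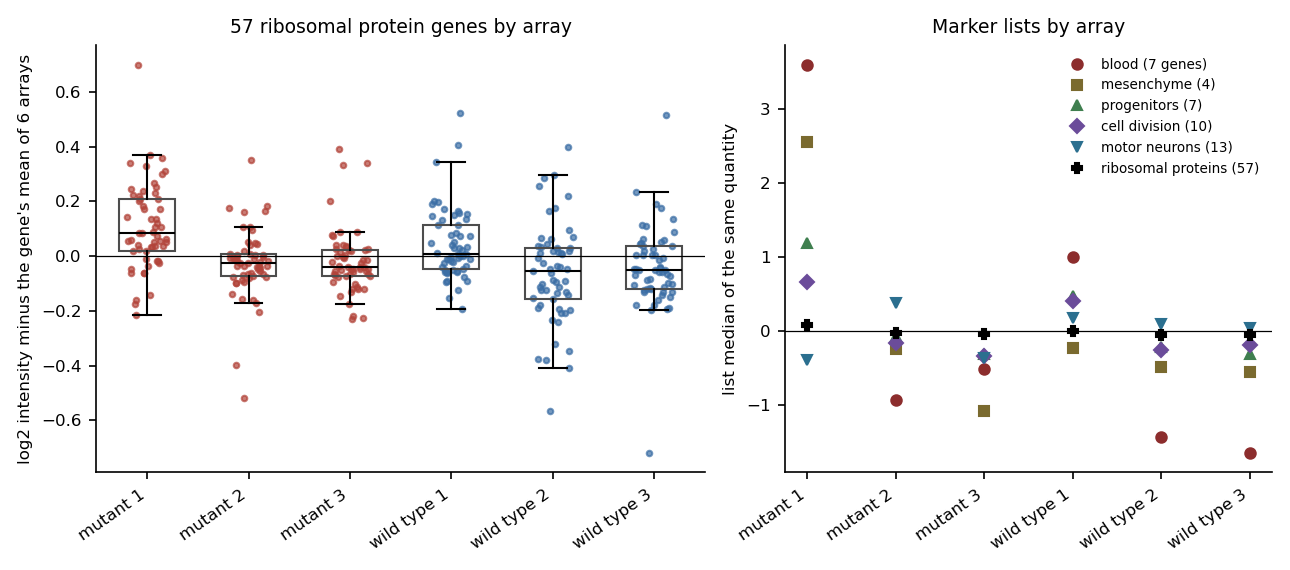
Left, deviation of each of the 57 ribosomal protein genes from its mean over 6 arrays (log2 intensity, vertical axis) on each array, 1 point per gene, with boxes for the quartiles and whiskers to the last point within 1.5 box lengths. Right, the median of the same quantity for marker lists and for the ribosomal proteins. The first mutant array has the highest ribosomal protein median, 0.08, and the highest blood and mesenchyme medians, 3.60 and 2.55.

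In 4 of the 57 genes (7.02%) all 3 mutant values lay above all 3 wild-type values, and in 0 of the 57 all lay below. Over all features these shares were 2.66% and 2.84%. The 4 genes were Rpl22l1, Rpl31, Rpl27 and Rpl3, all of the large subunit.

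Rpl22l1 encodes the paralog of Rpl22, an RNA-binding protein of the large subunit that the ribosome can do without. In mice that lack Rpl22, Rpl22l1 is known to be raised. On the log2 scale Rpl22l1 read 5.98, 5.52 and 6.00 in arrays labelled mutant, against 5.46, 5.24 and 5.47 in wild type. The groups did not overlap, but the lowest mutant value lay close to the highest wild-type value. The difference was 0.45 with a 95% interval of 0.01 to 0.88 and an unadjusted p of 0.045 in limma, and its adjusted p was 0.997. The probe was dim. Its deposited signals were 143.7, 128.7 and 153.4 on arrays labelled mutant and 125.4, 108.5 and 118.8 in wild type, detected on all 6 arrays. The size of the difference moved with the background correction and was 0.18 when none was applied. It was positive in each of the settings tried, between 0.18 and 0.60.

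Rpl22 itself read 10.55, 10.58 and 10.57 in arrays labelled mutant, against 10.52, 10.91 and 10.55 in wild type. The groups overlapped, 1 wild-type array stood above the other 5, and the difference was -0.09 (95% interval -0.47 to 0.29). The difference for Rpl22l1 exceeded that for Rpl22 by 0.54. An exact two-sided permutation test over the 6 arrays gave p = 0.1 for this contrast, the smallest value that 3 against 3 allows, and 0.3 after adjustment over 3 pairs.

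Of the other pairs, Rpl36a and its paralog Rpl36al, both large-subunit genes, had differences of 0.12 and -0.02. Their contrast, Rpl36al minus Rpl36a, was -0.14 (exact permutation p = 0.4, adjusted 0.4). Rpl36a read 12.84, 12.45 and 12.52 in arrays labelled mutant, against 12.45, 12.57 and 12.42 in wild type. Rpl36al read 13.21, 13.14 and 13.10 in arrays labelled mutant, against 13.20, 12.95 and 13.35 in wild type. Both genes overlapped between groups, and both differences moved when 1 array was left out. Rpl36a had 0.003 without mutant replicate 1, and Rpl36al turned its direction, at 0.07 without wild-type replicate 3.

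The last of the 3 pairs set Rpl24 beside Rsl24d1, an Rpl24-like factor of ribosome assembly that the symbol rule does not take in. Rsl24d1 read 8.96, 9.21 and 9.05 in arrays labelled mutant, against 9.35, 9.19 and 9.19 in wild type, a difference of -0.17. Rsl24d1 minus Rpl24 was -0.40 (exact permutation p = 0.2, adjusted 0.3). Rps4x, a small-subunit gene on the X chromosome, and its copy Rps4l differed by 0.05 and 0.06, a contrast of 0.003 with an exact permutation p of 1. Rps4x read 14.22, 14.31 and 14.35 in arrays labelled mutant, against 14.41, 14.22 and 14.09 in wild type. Rps4l read 9.76, 9.70 and 9.75 in arrays labelled mutant, against 9.69, 9.78 and 9.58 in wild type. The groups overlapped in both. That pair was added once the content of the array was known and is not in the adjustment.

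Rpl7l1 and Rps27l were measured without their main copies, for which no named probe was used here. Rpl7l1, which acts in ribosome assembly, read 9.19, 9.06 and 8.97 in arrays labelled mutant, against 9.36, 8.61 and 8.92 in wild type. Rps27l, a p53 target gene, read 12.66, 12.21 and 12.19 in arrays labelled mutant, against 12.59, 12.48 and 12.36 in wild type. The groups overlapped in both, and the differences were 0.11 and -0.13. Leaving out 1 array turned the direction of Rpl7l1, which ran from -0.07 without wild-type replicate 2 to 0.31 without wild-type replicate 1. Rps27l ran from -0.28 without mutant replicate 1 to -0.04 without mutant replicate 3.

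**Figure D3:**
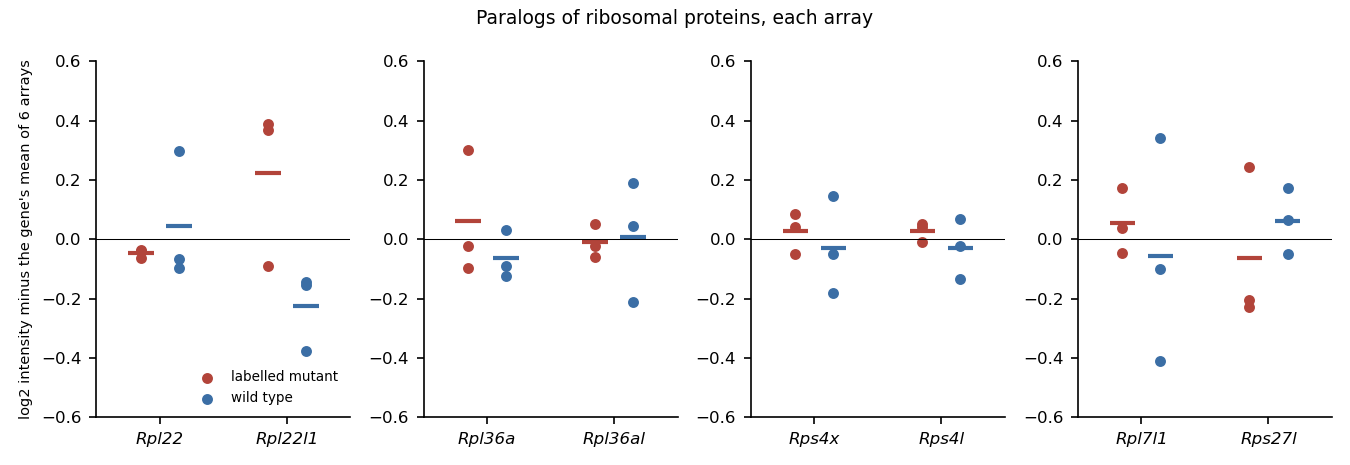
Points are log2 intensity minus the gene's mean over 6 arrays (vertical axis), 1 point per array. Arrays labelled mutant are in red to the left of wild-type arrays in blue, with group means as lines. Rpl22, Rpl36a and Rps4x are each drawn beside their paralog. The last panel holds Rpl7l1 and Rps27l, paralogs of different genes, without their main copies. The 3 mutant values of Rpl22l1 lie above its 3 wild-type values, and the groups overlap in the other 7 genes drawn.

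Rpl31, a protein beside the exit tunnel of the large subunit, read 14.04, 14.12 and 14.03 in arrays labelled mutant, against 13.95, 13.76 and 13.82 in wild type. Its difference was 0.22 (95% interval -0.11 to 0.54, limma adjusted p = 0.997). Its deposited signals overlapped before normalization, at 17526.2, 17778.1 and 18568 on arrays labelled mutant and 17725.2, 12062.8 and 13251.8 in wild type. The 2 other kept probes of Rpl31 also had positive differences, 0.20 and 0.38, but their groups overlapped and both were highest on the first mutant replicate. The probe with 0.20 read 10.75, 10.34 and 9.93 in arrays labelled mutant, against 10.09, 10.29 and 10.05 in wild type. The probe with 0.38 read 10.62, 10.41 and 9.98, against 10.08, 9.87 and 9.92. Rpl31 was the 1 member gene on chromosome 1 by the RefSeq annotation.

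Rpl27, also of the large subunit, read 14.13, 14.13 and 14.02 in arrays labelled mutant, against 13.97, 13.91 and 13.98 in wild type, a difference of 0.14. Rpl3, a core protein near the peptidyl transferase centre, read 14.03, 14.05 and 14.02 in arrays labelled mutant, against 13.94, 13.97 and 14.01 in wild type, a difference of 0.06. In both, the separation came with narrow groups and a small difference. The limma intervals spanned 0, from -0.17 to 0.45 and from -0.24 to 0.37. Their width owes much to the spread shared by all features. The limma standard errors were 0.131 and 0.129, against SDs over the 6 arrays of 0.090 and 0.041. Before normalization the groups of Rpl3 overlapped, with a mutant signal of 17010.5 below a wild-type signal of 17469.

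The other large-subunit members with the smallest p among those higher in arrays labelled mutant were Rpl29, Rpl24 and Rpl7a. Rpl29, a heparin-binding protein, had deposited signals of 10444.6, 6048.8 and 6692 on arrays labelled mutant, against 6856.8, 4995.7 and 5393.8 in wild type. Its normalized difference was 0.28 with the first mutant replicate, the highest of the 6 arrays, and -0.001 without it. Rpl24, the gene mutated in Belly spot and tail mice, read 13.22, 12.83 and 12.90 in arrays labelled mutant, against 13.05, 12.48 and 12.70 in wild type. Its groups overlapped, with a difference of 0.23 that was 0.11 without the first mutant replicate and 0.10 without wild-type replicate 2. Rpl7a read 11.97, 11.95 and 12.13 in arrays labelled mutant, against 11.81, 11.78 and 11.95 in wild type, a difference of 0.17.

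Among members lower in arrays labelled mutant, Rpl21 of the large subunit had the smallest p. It read 7.66, 7.72 and 7.95 in arrays labelled mutant, against 7.87, 8.05 and 8.01 in wild type, a difference of -0.20 (95% interval -0.56 to 0.16). Another Rpl21 probe had -0.18 and the remaining one 0.20, so its probes did not share a direction. Rplp2, an acidic protein of the stalk that recruits translation factors, read 14.02, 13.95 and 13.93 in arrays labelled mutant, against 14.01, 14.33 and 14.05 in wild type. Its difference of -0.16 was -0.06 without wild-type replicate 2. The other stalk genes lay close to 0, Rplp0 at 0.02 and Rplp1 at -0.002.

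Rps15a and Rps3a1, both of the small subunit, had the widest spread over the arrays together with Rpl29. Rps15a read 9.05, 8.19 and 8.53 in arrays labelled mutant, against 9.12, 8.15 and 9.22 in wild type. Rps3a1 read 9.07, 8.81 and 9.55 in arrays labelled mutant, against 9.73, 9.61 and 8.49 in wild type. In both genes the arrays of each group lay far apart and the groups overlapped, with differences of -0.24 and -0.13 and limma intervals of -1.06 to 0.58 and -0.998 to 0.73. The difference of Rps15a ran from -0.58 without wild-type replicate 2 to -0.04 without mutant replicate 2. That of Rps3a1 turned its direction, from -0.53 without wild-type replicate 3 to 0.09 without wild-type replicate 1.

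The narrowest members were Rps21, Rps9 and Rpl3. Rps21 read 14.20, 14.18 and 14.22 in arrays labelled mutant, against 14.16, 14.14 and 14.21 in wild type. Rps9 read 14.50, 14.50 and 14.55 in arrays labelled mutant, against 14.53, 14.55 and 14.59 in wild type. Over the 6 arrays the median SD was 0.133 for the 57 members and 0.252 for all features. Brightness differs between these sets, and at the level of the brighter members it was 0.121 for 43 members and 0.139 for 815 features. Whether the top of the intensity range compresses the values of very bright probes was not tested.

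Rpl38, named here after its values were seen because of its link to Hox genes, read 15.20, 15.07 and 14.99 in arrays labelled mutant, against 15.07, 15.06 and 15.02 in wild type. The groups overlapped and the difference was 0.04 (95% interval -0.28 to 0.36). Rps19bp1, which binds Rps19 and is no part of the ribosome, read 8.06, 8.26 and 7.96 in arrays labelled mutant, against 8.19, 8.11 and 7.88 in wild type. Its difference was 0.03.

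Several genes were measured more than once. Of the 79 kept probes, 53 were higher in arrays labelled mutant and 26 lower, where 45.6% of all kept probes were higher, and limma's fit over every kept probe passed 0 of them, where 0% of all kept probes passed. In 16 genes 38 probes were kept, and in 7 of these genes the probes differed in sign. The 7 genes were Rpl21, Rpl27a, Rpl28, Rps12, Rps13, Rps24 and Rps9. The widest gap was in Rps13, a small-subunit gene, where the bright probe had a difference of 0.10 and a dim probe detected on 3 arrays had -0.85. In Rps9 the probes had -0.04 and 0.22.

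By their brightest probe, the remaining genes of this kind stayed close to 0. Rpl27a read 14.31, 14.24 and 14.26 in arrays labelled mutant, against 14.19, 14.00 and 14.41 in wild type, a difference of 0.07. Rpl28 read 13.60, 13.52 and 13.41 in arrays labelled mutant, against 13.53, 13.45 and 13.56 in wild type, a difference of -0.004. Both are large-subunit genes, and in both the groups overlapped. Of the small subunit, Rps12 read 14.99, 14.85 and 14.72 in arrays labelled mutant, against 14.86, 15.03 and 14.76 in wild type, a difference of -0.03. Rps13 read 13.47, 13.23 and 13.17 in arrays labelled mutant, against 13.31, 13.03 and 13.22 in wild type. Rps24 read 14.93, 14.88 and 14.90 in arrays labelled mutant, against 14.75, 15.20 and 15.00 in wild type. The arrays of Rps24 labelled mutant lay inside the range of its wild-type arrays.

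Members tied to human disease were described as a list of their own. Of 13 genes on the array whose human orthologs are mutated in Diamond-Blackfan anaemia, a failure of red cell production, 12 were tested, 9 higher and 3 lower with a median of 0.03, and 0 passed. Rpl31 and Rpl27 had the smallest p among the higher genes. Among the lower genes these were Rps15a and Rps24, at -0.24 and -0.08.

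Other genes of the pathway were described beside the members, each from a list chosen by function. In none of the lists did a gene pass the limma test over all features. Of 74 tested genes of ribosome assembly and ribosomal RNA synthesis, 30 were higher and 44 lower in arrays labelled mutant, with a median of -0.03. Ppan, a factor of large-subunit assembly, read 9.81, 9.57 and 9.81 in arrays labelled mutant, against 8.82, 9.03 and 8.99 in wild type. Its groups lay well apart, with a difference of 0.78 and a limma adjusted p of 0.997. Nop14, a factor of small-subunit assembly, had a difference of 0.39. Llph and Taf1a, a subunit of the RNA polymerase I selectivity factor, had -0.62 and -0.45. Llph read 6.67, 6.73 and 6.81 in arrays labelled mutant, against 7.10, 7.57 and 7.41 in wild type. The groups of Nop14, Llph and Taf1a did not overlap either. These genes were picked by their small p, so such separation is no separate result. In the list of 74, groups did not overlap for 4 genes higher and 5 lower in arrays labelled mutant. Of all features, 2.66% were higher and 2.84% lower in this way.

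Of 47 cytosolic translation factors, 19 were higher and 28 lower, with a median of -0.02. Those with the smallest p were Eif4e2, a cap-binding protein, at 0.55 and Eif3k, a subunit of initiation factor eIF3, at 0.25. In the other direction they were Abce1, which splits ribosomes for recycling, at -0.43 and Eif4g2 at -0.51. The groups overlapped in Eif4e2, Eif3k and Eif4g2 but not in Abce1. Eif4e2 read 10.38, 10.10 and 8.96 in arrays labelled mutant, against 9.16, 9.42 and 9.20 in wild type. Of 14 genes outside the members known in mammals for a terminal oligopyrimidine tract, 4 were higher and 10 lower, with a median of -0.03. Most of these genes were counted above already. Eef1a1, Eef1b2, Eef1d, Eef1g, Eef2, Eif3f, Eif3h, Eif4b and Pabpc1 are also among the translation factors. Npm1 is also among the genes of ribosome assembly, so the lists are not independent. Vim, at 0.34, read 11.20, 9.95 and 9.40 in arrays labelled mutant, against 10.76, 9.18 and 9.59 in wild type. It is also on the list of progenitor markers, and it was highest on the arrays numbered 1. Eif3f had 0.06, Eif4b -0.27 and Npm1, a nucleolar protein, -0.21.

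Of 15 tested target genes of p53, which free ribosomal proteins are known to activate through Mdm2, 1 was the member Rps27l. The other 14 had 5 higher and 9 lower, with a median of -0.11. Ccng1 and Sesn1 had 0.18 and 0.28, and Sesn2 and Gadd45a had -0.32 and -0.30. The mitochondrial ribosome, a separate particle with its own genes, had 39 of 73 higher and 34 lower, with a median of 0.01. Its genes with the smallest p were Mrpl39 at 0.29, Mrps10 at 0.64, Mrps35 at -0.50 and Mrps15 at -0.32.

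**Figure D4:**
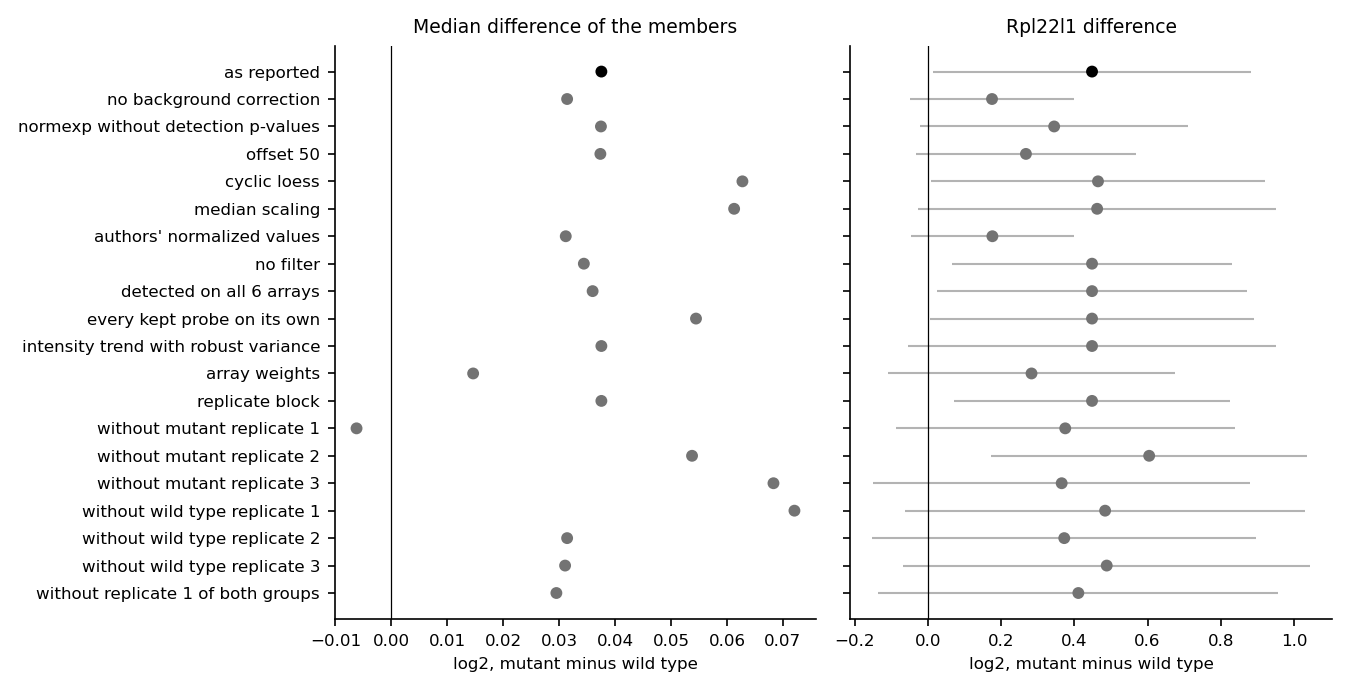
Left, the median difference of the ribosomal protein genes (log2 intensity, arrays labelled mutant minus wild type) as reported and under each other setting. Right, the difference of Rpl22l1 with limma's 95% interval under the same settings. The median runs from -0.01 without the first mutant replicate to 0.07, and Rpl22l1 stays between 0.18 and 0.60.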

How the data were processed

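For every probe on every array the authors deposited, per the file headers, a linear intensity together with a detection p-value. How the scanner read or subtracted background is not stated in the labels. Quantile normalization alone gave the authors' normalized intensities, a second deposited table, within 1.48%.

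Values were background-corrected with limma 3.58.1 in R 4.3.3 (normexp, negative controls inferred from the detection p-values, offset 16), put on the log2 scale and quantile-normalized over 6 arrays. Probes detected at p under 0.05 on at least 3 of 6 arrays were kept (19735 of 45281). Each gene was represented by its brightest kept probe and unnamed probes stood alone, which gave 13638 features, 10438 of them genes with a symbol. Symbols came from the platform annotation, in which 34885 probes had 1 symbol, 18 several and 10378 none. All 65 member symbols matched RefSeq by gene ID. The number of array columns that matched no sample was 0.

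Groups came from the titles. Differences (mutant minus wild type) were fitted on genotype alone by lmFit and eBayes, with Benjamini-Hochberg adjustment over all features and a threshold of 0.05. The step was run on simulated data with known changes, to check that the fit gave their sizes back. The simulated noise was independent between features, so that check does not cover effects shared by an array. Paralog pairs were compared by exact two-sided permutation of the 6 arrays. The number of arrays limits the precision.

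The ribosomal protein genes and all lists were chosen with earlier results of these data known. The genes named are the paralog pairs, the 5 members with the smallest p in each direction, the 3 with the widest and the 3 with the narrowest spread, members detected on some arrays, those outside the ribosome, those with probes of opposite sign, and the 2 smallest p in each direction of each list. Alternatives covered background correction, offset, normalization, the authors' values, the filter, probes, variance model, array weights, the replicate block and leaving out each array.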

Additional observations from a re-analysis of the deposited data

How the results depend on the processing

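Under 18 other settings with 1 probe per gene, the one without the arrays numbered 1 of both groups chosen after seeing the data, 0 ribosomal protein genes passed, the lowest adjusted p of a member in limma was 0.834, and no member left the 95% interval given in the report. In 22 of the 57 genes the sign of the difference was the same in every setting. Leaving out 1 array gave 27 to 42 members with a higher mean in arrays labelled mutant and a median of -0.01 to 0.07, the lowest without the first mutant replicate. The count was 45 under cyclic loess and 44 under median scaling, where the median of all features was also higher (0.014 and 0.017, against -0.014 as reported). It was 31 with array weights, 41 of 65 with no filter and 53 of 79 with every kept probe on its own. Rpl22l1 minus Rpl22 ran from 0.26 with no background correction to 0.70 without mutant replicate 2. Over all features, 1 passed under median scaling and 1 without mutant replicate 3, where 0 passed otherwise, and neither was a ribosomal protein gene. The cause was not tested. With the replicate number as a block, 0 members passed, 37 of 57 were higher and the median was 0.04. Arrays of the same number correlated at 0.32, 0.01 and 0.10 in their deviations from the group means, so the numbers were not taken to pair the samples, although the arrays numbered 1 of both groups were the highest in blood, progenitor and division markers. Dim probes such as those of Rpl22l1 and Rpsa lie close to background, which limits what they can show.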
